A study of Nannochloropsis oceanica with 15 samples.

Results

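The aminoacyl-tRNA synthetases and the organelle-type ribosomal proteins of Nannochloropsis oceanica strain IMET1, a unicellular marine alga that stores oil, were followed at the level of their transcripts over 48 h of phosphate deprivation. Members were chosen by their protein description. The rule uses no measured value, but it was set with earlier results of these data known. A gene was taken where its description named a tRNA ligase or tRNA synthetase, a ribosomal protein of the bacterial (30S, 50S) or mitochondrial (28S, 39S) size classes, or a ribosomal protein called mitochondrial or chloroplastic. The rule found 69 of the 10434 genes in the table, 45 synthetases and 24 organelle ribosomal proteins, and the 2 classes are described apart. The RNA came from 5 times, 0, 6, 12, 24 and 48 h, with 3 libraries each (replicates a, b and c). Cells of IMET1 had been grown under continuous light in f/2 medium, washed in seawater and transferred to f/2 medium lacking phosphate, and all 15 libraries, those of 0 h included, carry the treatment label of deprivation. The labels also speak of cultures in complete medium, yet no library among the 15 bears such a label. The sole baseline is therefore 0 h, and elapsed time, handling and lack of phosphate cannot be told apart.

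Aminoacyl-tRNA synthetases join each amino acid to its tRNA, and the charged tRNA carries the amino acid to the ribosome. An alga makes protein in the cytosol, in the plastid and in the mitochondrion, and each of these needs a full set of charged tRNAs. Ribosomes of the plastid and the mitochondrion are of bacterial descent, and their proteins are encoded partly in the organelle's own genome and partly in the nucleus. In the plant Arabidopsis thaliana many synthetases made in the cytosol are imported by both organelles, and such proteins are described as chloroplastic/mitochondrial. These compartment words belong to the homolog whose description was passed on, and where the algal protein works was not measured.

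Total counts per library were 16649421 to 26349336, and 9321 genes had enough counts to be tested, among them 66 of the 69 members (43 synthetases and 23 ribosomal proteins). Levels within a gene are given in counts scaled to the library size (CPM) and levels between genes in FPKM, which also divides by gene length. CPM is a share of all counted transcripts of a culture, so less RNA of a gene per cell and fewer cells making it cannot be told apart. Log2 fold changes of single members are in most cases given with their standard error. Those of genes in the other lists of protein synthesis genes are given without it. Adjusted p-values come from edgeR's quasi-likelihood test with Benjamini-Hochberg adjustment over all tested genes, a gene is said to have risen or fallen where this is under 0.05, and all n are 3 libraries per time. Nothing in the labels says that the libraries of a time came from separate cultures, so the p-values measure the spread between libraries, which may be technical. Each count of 0 rises or 0 falls that is given below for a group from this test, on all 15 libraries and with no minimum fold, was also 0 at an unadjusted p under 0.05, except that 1 synthetase with a chloroplastic/mitochondrial homolog passed as a rise from 24 to 48 h.

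The 45 synthetases cover all 20 amino acids. Glutamine has 1 gene, 14 amino acids have 2, and alanine, cysteine, phenylalanine and tryptophan have 3. Methionine has 4 genes, but NO03G03570 and NO05G00870, both described as a probable methionine tRNA ligase, carry a tRNA-binding domain and no catalytic domain in the domain column of the table. The description names chloroplast and mitochondrion for 21 synthetases, the cytoplasm for 14, the mitochondrion alone for 3, and no compartment for 7. Every gene for arginine, asparagine and cysteine carries the chloroplastic/mitochondrial word, as do both methionine genes with a catalytic domain. The cytosol needs these charged tRNAs too, so this group may also hold genes that serve the cytosol. Synthetases fall into class I and class II by the fold of the catalytic domain, and the class was taken here from the amino acid alone. That put 23 genes in class I, NO03G03570 and NO05G00870 among them, and 22 in class II.

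More synthetase transcripts fell than rose at 6 and 12 h. At 6 h 16 of the 43 tested genes had fallen and 8 had risen, against 25.7% and 24.7% of all tested genes, and the median log2 fold change was -0.14 (all genes -0.03). Without 0 h replicate a, or without 6 h replicate a, 5 rather than 8 were called as risen. At 12 h 19 had fallen and 9 had risen (all genes 32.7% and 32.1%), with a median of -0.26 (all genes -0.04). The share that rose was thus below that of all genes at both times, and the share that fell was above it.

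At 24 h 11 synthetases lay above 0 h and 7 below it by the test (all genes 25.2% and 20.8%), with a median of 0.09. The share of rises was near that of all genes, which also had more rises than falls at that time, and the share of falls was below it. The falls at 24 h were small, and 3 to 4 were called when any 0 h library, 24 h replicate a or 24 h replicate b was left out. At 48 h 2 had risen and 13 had fallen (all genes 26.3% and 23.0%), with a median of -0.10, and 1 of the rises was lost without any of the 6 libraries compared.

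The successive times were compared in the same fit. From 6 to 12 h 1 synthetase rose and 8 fell (all genes 23.5% and 23.3%), and 4 in all were called when only those 6 libraries were fitted. From 12 to 24 h 18 rose and 3 fell (all genes 27.2% and 26.6%). From 24 to 48 h 1 rose and 16 fell (all genes 12.3% and 10.4%). Of the 43 tested genes, 15 were highest at 0 h and 15 at 24 h, and 13 were lowest at 6 h and 13 at 12 h. In all, 30 (69.8%) changed over the 5 times by the F-test of the same fit, where 76.0% of all tested genes did.

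The changes were small in size. Past the adjusted p and at least 2-fold from 0 h stood 2 synthetases at 6 h, 5 at 12 h and 0 at 24 and 48 h, where 14.7%, 29.5%, 11.9% and 15.1% of all tested genes were at least 2-fold changed. The median ratio of a synthetase's highest to its lowest mean over the 5 times was 1.62, against 1.99 for all tested genes. Per length, the median synthetase stood at 32.6 FPKM (all genes 19.2), and the tested synthetases ranged from 6.14 FPKM in a tryptophan synthetase to 111 FPKM in NO05G00870.

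**Figure D1:**
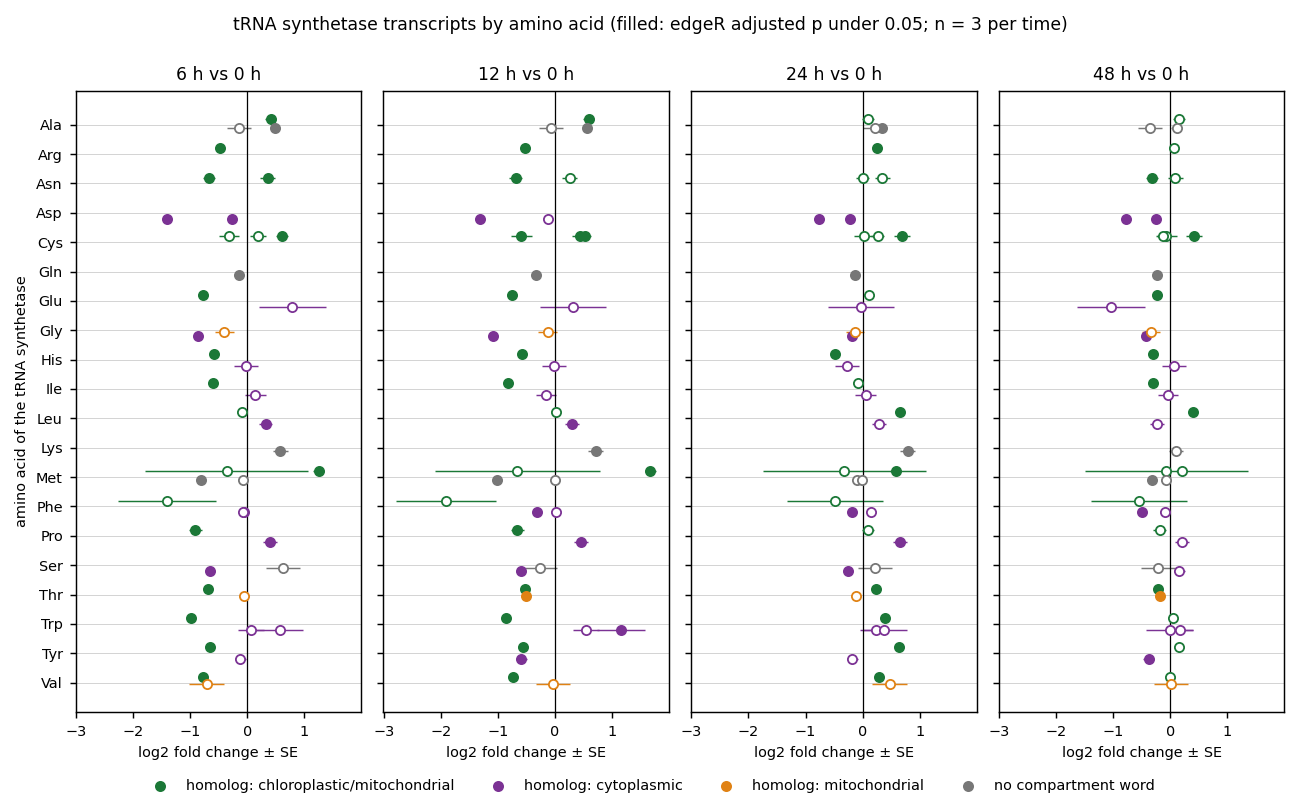
Log2 fold change (± SE) of each tested synthetase against 0 h, at 6, 12, 24 and 48 h from left to right, with 1 row per amino acid and colour by the compartment word of the homolog; filled points passed the edgeR test. Green points, the chloroplastic/mitochondrial homologs, lie mostly left of 0 at 6 and 12 h (10 and 11 of 19 fell) and mostly right of it at 24 h (8 of 19 rose and 1 fell).

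Most of the falls at 6 and 12 h were in synthetases with chloroplastic/mitochondrial homologs. Of the 19 tested, 10 fell and 4 rose at 6 h (all genes 25.7% and 24.7%), with a median of -0.59, and 11 fell and 4 rose at 12 h (all genes 32.7% and 32.1%), with a median of -0.58. At 24 h 8 had risen above 0 h and 1 had fallen (all genes 25.2% and 20.8%), with a median of 0.23. The share of falls was above that of all genes at 6 and 12 h and below it at 24 h, while the share of rises at 6 h was near it. From 12 to 24 h 11 rose and 2 fell (all genes 27.2% and 26.6%), with a median of 0.69. From 24 to 48 h 9 fell and 0 rose in the edgeR test (all genes 10.4% and 12.3%), with 0 also rising by DESeq2 and 1 rising without 12 h replicate a. In the 15 fits that each left out 1 library, the falls at 6 h numbered 10 to 11, those at 12 h 11 to 12, the rises at 24 h 7 to 10 and the rises from 12 to 24 h 10 to 12.

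The tryptophan synthetase NO01G05130 fell early and rose above 0 h at 24 h. It stood at 61.3, 61.9 and 66.4 CPM at 0 h, 30.7, 31.2 and 33.3 after 6 h, 34.8, 34.1 and 35.3 after 12 h, 82.3, 77.8 and 87.8 after 24 h, and 61.2, 69.3 and 64.1 after 48 h, for replicates a, b and c. All libraries of 6 and 12 h lay below all of 0 h, all of 24 h above them, and those of 48 h overlapped with 0 h. The log2 fold change from 0 h was -0.99 ± 0.07 at 6 h (edgeR adjusted p = 2.5e-07), -0.86 ± 0.07 at 12 h (2.3e-07), 0.39 ± 0.07 at 24 h (0.00047) and 0.04 ± 0.07 at 48 h (0.68). From 12 to 24 h it rose by 1.25 ± 0.07 (edgeR adjusted p = 1.1e-07), the largest called rise of any synthetase in that step.

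The tyrosine synthetase NO15G00940 moved alike. Its libraries stood at 82.3, 83.9 and 83.1 CPM at 0 h, 50.2, 49.4 and 57.9 after 6 h, 59.4, 56.4 and 52.7 after 12 h, 123.6, 124.8 and 140.1 after 24 h, and 86.7, 96.6 and 93.5 after 48 h. The 24 h libraries were the highest and did not overlap with any other time. The log2 fold change from 0 h was -0.66 ± 0.08 at 6 h, -0.56 ± 0.08 at 12 h and 0.64 ± 0.08 at 24 h (edgeR adjusted p = 1.7e-05, 3.6e-05 and 3.3e-05), and the rise from 12 to 24 h was 1.21 ± 0.08 (3e-07).

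For valine, NO05G00270 stood at 215.5, 209.3 and 207.6 CPM at 0 h, 122.5, 116.6 and 129.4 after 6 h, 124.3, 129.4 and 124.9 after 12 h, 255.8, 244.3 and 266.8 after 24 h, and 199.7, 215.6 and 212.6 after 48 h. It fell at 6 h (-0.78 ± 0.05) and 12 h (-0.74 ± 0.05), and rose above 0 h at 24 h (0.28 ± 0.05; edgeR adjusted p = 0.00096). The 48 h libraries overlapped with those of 0 h (-0.01 ± 0.05; adjusted p = 0.89).

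For glutamate, NO08G03520 stood at 255.8, 252.9 and 263.7 CPM at 0 h, 141.6, 138.0 and 174.2 after 6 h, 162.5, 155.7 and 141.5 after 12 h, 280.3, 260.2 and 293.1 after 24 h, and 218.5, 211.5 and 222.8 after 48 h. Glutamyl-tRNA in the plastid of plants and algae is also the starting material of chlorophyll and heme. With a mean of 101 FPKM, this was the most abundant synthetase transcript with a catalytic domain. It fell at 6 h (-0.77 ± 0.09; edgeR adjusted p = 1.3e-05) and 12 h (-0.75 ± 0.09; 8.5e-06), rose by 0.86 ± 0.09 from 12 to 24 h (5.6e-06), and its 24 h level was 0.11 ± 0.09 from that of 0 h (0.33).

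The same descent to 6 and 12 h and rise to 24 h passed the test in the threonine (NO14G02350), isoleucine (NO01G02870), proline (NO01G04920), asparagine (NO02G02540) and arginine (NO09G02190) synthetases of this group. Their log2 fold changes were -0.48 to -0.91 at 6 h, -0.52 to -0.83 at 12 h and 0.69 to 0.76 from 12 to 24 h. Not all members of the group returned. The histidine synthetase NO07G02500 stayed below 0 h throughout, from 96.9, 97.8 and 97.2 CPM at 0 h to 65.0, 60.1 and 69.2 after 6 h, 71.8, 60.9 and 63.3 after 12 h, 72.2, 63.6 and 72.5 after 24 h, and 78.9, 77.6 and 78.9 after 48 h. Its fall was -0.49 ± 0.07 at 24 h (edgeR adjusted p = 0.00022), the only called fall in this group at that time.

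Other members of the group went up instead. The methionine synthetase NO01G04580 rose most of all synthetases, from 30.1, 30.5 and 30.5 CPM at 0 h to 85.0, 70.1 and 61.4 after 6 h and 92.1, 101.1 and 97.1 after 12 h. It was back to 47.8, 45.3 and 42.8 CPM at 24 h and to 35.2, 36.6 and 32.9 after 48 h. Every later library lay above every library of 0 h, and the log2 fold change was 1.25 ± 0.10 at 6 h (edgeR adjusted p = 9.5e-07), 1.67 ± 0.10 at 12 h (3.6e-08) and 0.58 ± 0.10 at 24 h (0.00054). From 12 to 24 h it fell by 1.10 ± 0.10, while most of its group rose.

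The leucine synthetase NO08G02190 was not called at 6 or 12 h and rose late. It stood at 177.2, 172.3 and 173.1 CPM at 0 h and at 279.6, 262.3 and 280.9 after 24 h, with log2 fold changes of -0.10 ± 0.07 at 6 h, 0.01 ± 0.07 at 12 h, 0.66 ± 0.07 at 24 h (edgeR adjusted p = 1.1e-05) and 0.39 ± 0.07 at 48 h (0.00046). The 3 cysteine synthetases, all with chloroplastic/mitochondrial homologs, went different ways at 12 h. NO30G00960 rose by 0.52 ± 0.11 (edgeR adjusted p = 0.0013), NO19G01710 fell by 0.59 ± 0.18 (0.012), and NO02G02070 differed by 0.43 ± 0.14 (0.019), a call lost without 0 h replicate a (0.39) or 12 h replicate a (0.38).

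**Figure D2:**
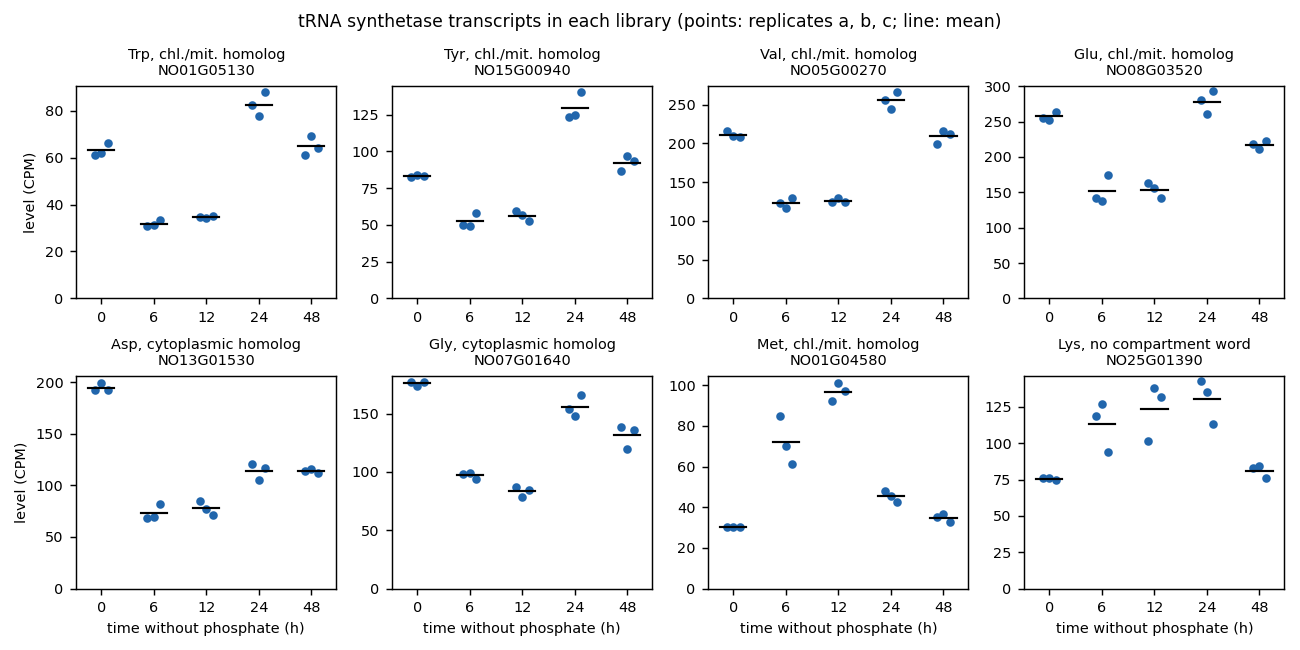
Level in CPM of 8 synthetase transcripts in each of the 15 libraries, by time without phosphate; points are replicates and lines their mean, and each axis starts at 0. The top row shows 4 chloroplastic/mitochondrial homologs with low 6 and 12 h libraries and high 24 h ones, and the bottom row the aspartate and glycine genes that fell and the methionine and lysine genes that rose.

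Synthetases with cytoplasmic homologs had medians nearer 0. Of 14 tested, 4 fell and 2 rose at 6 h (median -0.04; all genes 25.7% and 24.7%), and 5 fell and 3 rose at 12 h (median -0.06; all genes 32.7% and 32.1%), so the falls were close to the share of all genes. At 24 h 5 fell and 1 rose (median -0.11; all genes 20.8% and 25.2%), and at 48 h 5 fell and 0 rose (median -0.16; all genes 23.0% and 26.3%), with 0 rises by DESeq2 and 1 without 6 h replicate c. The rises of this group were weakly held, with 0 to 2 at 6 h and 1 to 4 at 12 h in the fits that left out 1 library, and the falls at 24 h numbered 2 to 5. From 12 to 24 h 4 rose and 0 fell by edgeR and by DESeq2 (all genes 27.2% and 26.6%), with 1 falling without 12 h replicate c or 24 h replicate a. That the course of these genes differs from that of the chloroplastic/mitochondrial homologs was not tested, since both groups share the same libraries.

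The 2 steepest called falls at 12 h were nonetheless in genes with cytoplasmic homologs. The aspartate synthetase NO13G01530 fell from 192.1, 199.7 and 192.8 CPM at 0 h to 68.8, 69.5 and 81.7 after 6 h and 84.8, 76.9 and 71.8 after 12 h. It stayed at 120.7, 105.1 and 116.5 CPM at 24 h and at 113.8, 116.3 and 112.3 after 48 h. All later libraries lay below all of 0 h, and the log2 fold change was -1.41 ± 0.08 at 6 h (edgeR adjusted p = 8.9e-08), -1.32 ± 0.08 at 12 h (3.9e-08), -0.77 ± 0.08 at 24 h (1.2e-05) and -0.77 ± 0.08 at 48 h (1.1e-05).

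The glycine synthetase NO07G01640 was at 177.4, 174.0 and 177.4 CPM at 0 h, 97.8, 99.4 and 93.7 after 6 h, 86.7, 78.3 and 84.9 after 12 h, 153.8, 147.6 and 166.3 after 24 h, and 138.3, 119.6 and 136.0 after 48 h. It fell by 0.86 ± 0.07 at 6 h (edgeR adjusted p = 6.9e-07), 1.08 ± 0.07 at 12 h (4e-08) and 0.43 ± 0.07 at 48 h (0.00022). Unlike aspartate's gene, it came most of the way back at 24 h, rising by 0.91 ± 0.07 from 12 h (6.3e-07).

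The serine synthetase NO12G01920 was low at 6 h (139.0, 137.5 and 175.1 CPM) and 12 h (165.5, 154.0 and 149.6) against 239.5, 232.5 and 236.8 CPM at 0 h. It was the only synthetase that rose from 24 to 48 h, from 198.4, 188.3 and 204.4 CPM to 273.2, 246.5 and 270.0, by 0.42 ± 0.09 (edgeR adjusted p = 0.005). The cytoplasmic tyrosine homolog NO03G04650 fell at 12 h (-0.59 ± 0.10; edgeR adjusted p = 0.00016), as did its chloroplastic/mitochondrial counterpart, and at 48 h (-0.38 ± 0.10; 0.0055). The phenylalanine subunit gene NO23G00440 fell by 0.31 ± 0.07 at 12 h and by 0.49 ± 0.07 at 48 h (edgeR adjusted p = 0.0016 and 0.00011).

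Of the 7 synthetases without a compartment word, the lysine gene NO25G01390 rose and NO05G00870 fell. The lysine gene stood at 75.8, 76.2 and 74.7 CPM at 0 h, 119.0, 127.0 and 93.7 after 6 h, 101.5, 138.1 and 131.8 after 12 h, 142.9, 135.2 and 113.1 after 24 h, and 83.0, 84.3 and 76.2 after 48 h. It rose by 0.58 ± 0.13 at 6 h, 0.71 ± 0.13 at 12 h and 0.79 ± 0.13 at 24 h (edgeR adjusted p = 0.003, 0.00049 and 0.00047), and its 48 h libraries overlapped with 0 h. The alanine gene NO08G02150 rose by 0.49 ± 0.09 at 6 h and 0.56 ± 0.09 at 12 h, and the chloroplastic/mitochondrial alanine homolog NO22G01470 by 0.41 ± 0.10 and 0.59 ± 0.10 (edgeR adjusted p = 0.00048, 0.0001, 0.0048 and 0.00027). The glutamine gene NO13G02500, the only synthetase for that amino acid, fell by 0.33 ± 0.05 at 12 h and 0.24 ± 0.05 at 48 h (edgeR adjusted p = 5.5e-05 and 0.0012).

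NO05G00870, which holds a tRNA-binding domain and no catalytic domain, was the most abundant member of the class and moved as the falling synthetases did. Its libraries stood at 164.8, 166.8 and 171.2 CPM at 0 h, 90.2, 87.1 and 109.1 after 6 h, 82.7, 86.5 and 80.8 after 12 h, 166.8, 164.0 and 166.7 after 24 h, and 127.4, 134.7 and 138.7 after 48 h. The log2 fold change was -0.81 ± 0.07 at 6 h, -1.01 ± 0.08 at 12 h (edgeR adjusted p = 2.6e-06 and 1.8e-07) and -0.02 ± 0.07 at 24 h (0.89). NO03G03570, the other gene of this description, had log2 fold changes of -0.10 to 0.00 (edgeR adjusted p = 0.18 to 0.96).

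Read by amino acid, the synthetase transcripts of 13 amino acids moved at 12 h only by falls, those of 3 (alanine, leucine and lysine) only by rises, and those of 4 (cysteine, methionine, proline and tryptophan) in both directions. The rise of leucine's gene NO19G02390 that puts leucine among the amino acids with only rises was 0.30 ± 0.12 (edgeR adjusted p = 0.046), and it was lost in 12 of the 15 fits without 1 library and with the replicate block. Tryptophan's rise was that of NO17G01040 alone. That call was lost when any single 0 h library, 12 h replicate a or 12 h replicate b was left out. At 24 h 6 amino acids had only falls, 11 only rises and 0 both in the main test, and asparagine, glutamate and isoleucine had neither. An amino acid counted here as soon as 1 of its genes was called. By gene, 19 of 43 fell and 9 rose at 12 h (all genes 32.7% and 32.1%). At 24 h 7 fell and 11 rose (all genes 20.8% and 25.2%), so the rises were near the share of all genes. Fewer falls were called at 24 h when some single libraries were left out. For proline the genes went opposite ways at 12 h: the chloroplastic/mitochondrial homolog NO01G04920 stood at 104.9, 109.3 and 109.6 CPM at 0 h and 63.6, 74.8 and 66.2 after 12 h, while the cytoplasmic homolog NO03G01750 went from 43.8 ± 3.37 to 59.8 ± 3.09 CPM (SD, n = 3). Their log2 fold changes at 12 h were -0.66 ± 0.11 and 0.45 ± 0.12 (edgeR adjusted p = 0.0002 and 0.0057), and the 3 libraries of 12 h did not overlap with those of 0 h for either gene. At 6 h NO01G04920 had fallen, and NO03G01750 was called as risen (0.40 ± 0.12; edgeR adjusted p = 0.015), a call lost with only the 6 libraries compared (0.43) and without 0 h replicate a (0.34) or 6 h replicate a (0.27).

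Several synthetases had libraries that stood far from the others of their time, and little can be said of their course. The tryptophan gene NO17G01040, whose model also holds an inositol monophosphatase domain, was called at 12 h (1.15 ± 0.42; edgeR adjusted p = 0.03), yet its 12 h libraries stood at 192.1, 178.0 and 63.5 CPM against 63.2 to 68.3 at 0 h, and the call was lost without 0 h replicate a (1.18), b (1.12) or c (1.14) and without 12 h replicate a (0.88) or b (0.97). The phenylalanine gene NO04G03520 stood at 121.3 to 135.8 CPM at 0 h and at 4.93, 68.4 and 73.5 after 6 h and 59.0, 3.80 and 40.6 after 12 h, and its log2 fold change of -1.91 ± 0.87 at 12 h did not pass the test (edgeR adjusted p = 0.074). The methionine gene NO03G03530 was listed at 0.115 CPM in 12 h replicate b and 0.106 CPM in 24 h replicate b, against 70.1 to 109.4 CPM in the other 13 libraries. The valine gene NO22G00330, the serine gene NO15G01780 and the glutamate gene NO08G02860 had standard errors of 0.30 to 0.59, and of these the serine gene's difference from 6 to 12 h (-0.89 ± 0.30; edgeR adjusted p = 0.03) was the only call, lost without any 6 h library (-0.91 to -0.88) and without 12 h replicate a (-0.69) or b (-0.72), while without 12 h replicate c the value was -1.34.

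A pair of synthetases had enough counts in too few libraries to be tested. The arginine gene NO04G02920 had 10.4 CPM in 6 h replicate c, 0.0531 CPM in 24 h replicate b and 0 counts in the other 13 libraries, and the lysine gene NO01G01770 had 0 to 0.82 CPM. Where nothing was counted the level could still reach 3 counts, which is 0.105 to 0.187 CPM depending on the library and covers counting error only. Arginine and lysine are each left with 1 measured synthetase gene, NO09G02190 and NO25G01390.

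Of the 24 organelle ribosomal proteins, 17 belong to the large subunit and 7 to the small, and 19 have chloroplastic homologs, 2 mitochondrial, 1 chloroplastic/mitochondrial and 2 homologs in the cyanelle, the plastid of the alga Cyanophora paradoxa. The reference table of the organelle genomes lists 43 ribosomal protein genes in the plastid genome and 16 in the mitochondrial genome. Of the 24 members, 15 share a name (such as L20 or S9) with a gene listed for the plastid, 9 do not, and 0 share a name with a gene listed for the mitochondrion. This grouping was made from names after the values had been seen.

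Ribosomal protein transcripts were lowest at 6 h and at 48 h. At 6 h 10 of the 23 tested fell (all genes 25.7%) and 1 rose (24.7%), with a median log2 fold change of -0.31. At 12 h 7 had fallen and 5 had risen (all genes 32.7% and 32.1%), with a median of -0.07, so both shares were then below those of all genes. Upper-quartile scaling, which shifted the median of all genes at 12 h to -0.104, gave 9 falls and 3 rises.

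At 24 h 8 ribosomal protein genes lay below 0 h and 6 above it (all genes 20.8% and 25.2%), with a median of -0.13, and the falls numbered 5 without 24 h replicate c. At 48 h 14 had fallen and 2 had risen (all genes 23.0% and 26.3%), with a median of -0.36, the lowest of the 4 comparisons with 0 h. Of the 2 rises 1 was lost without 0 h replicate a or b and without 48 h replicate a or c, and at 6 h 2 rather than 1 rose without 6 h replicate a or 24 h replicate a. Of the 23 genes, 9 were highest at 0 h, 7 at 24 h, 6 at 12 h, 1 at 6 h and 0 at 48 h, while 10 were lowest at 48 h and 8 at 6 h.

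Between successive times, 11 rose and 1 fell from 6 to 12 h (all genes 23.5% and 23.3%). From 12 to 24 h 4 rose and 7 fell (all genes 27.2% and 26.6%), but this split depended on the scaling, since upper-quartile factors gave 6 rises and 1 fall and shifted the median of all genes to 0.104. From 24 to 48 h 6 fell and 0 rose in the edgeR test (all genes 10.4% and 12.3%), with 7 calls by DESeq2. The F-test over the 5 times called 21 of 23 genes (91.3%, all genes 76.0%), although only S1 at 6 h was at least 2-fold changed from 0 h with a passing p, and the median ratio of highest to lowest mean was 1.52.

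**Figure D3:**
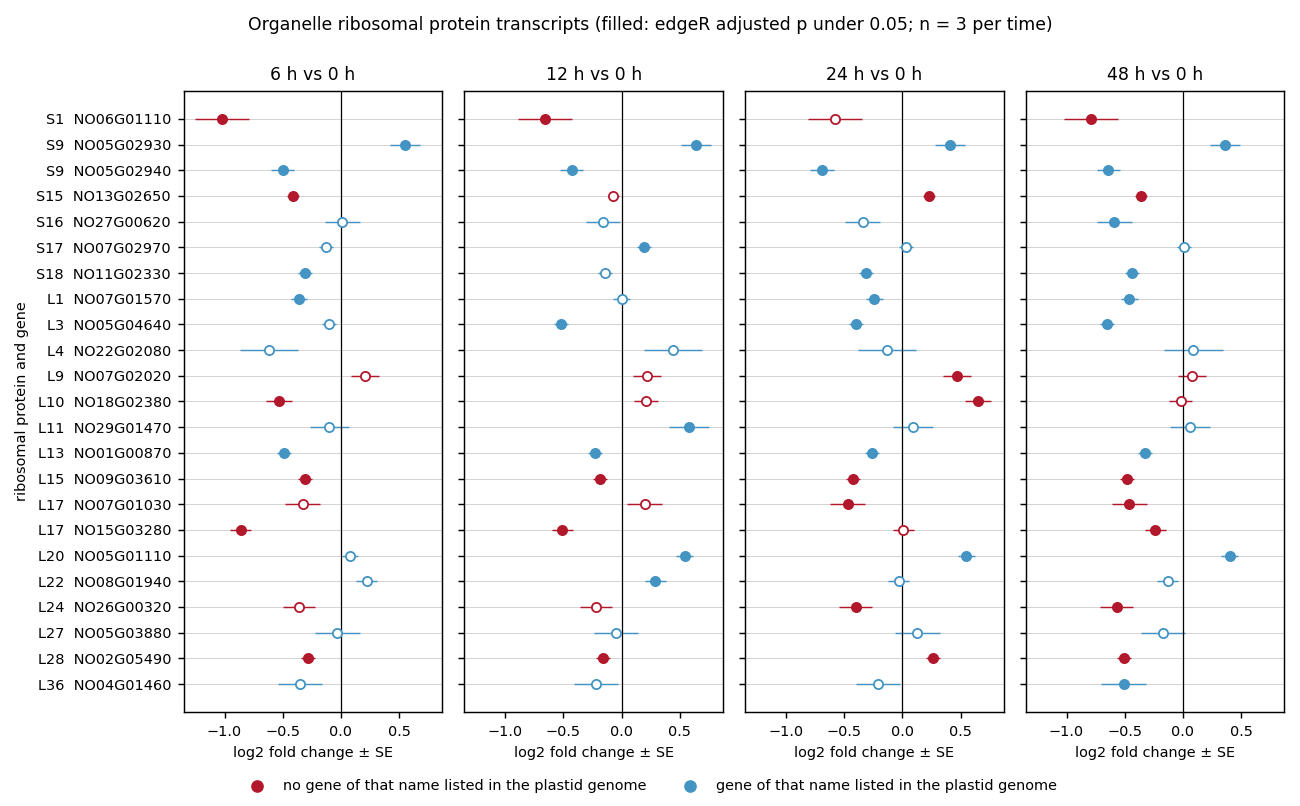
Log2 fold change (± SE) of the 23 tested organelle ribosomal protein genes against 0 h, at 6, 12, 24 and 48 h from left to right; filled points passed the edgeR test, and colour shows whether the plastid genome lists a gene of that name. At 48 h 14 genes lie to the left with a filled point, against 7 at 12 h.

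The small-subunit protein S1 (NO06G01110), which in bacteria binds messenger RNA, was the most abundant of the class, with a mean of 335 FPKM. It stood at 849.8, 810.9 and 825.9 CPM at 0 h, 397.2, 393.3 and 439.7 after 6 h, 512.2, 547.3 and 513.2 after 12 h, 756.6, 398.8 and 513.1 after 24 h, and 579.8, 536.7 and 318.9 after 48 h. Every later library lay below every library of 0 h, and those of 24 and 48 h were spread widely. It fell by 1.02 ± 0.23 at 6 h (edgeR adjusted p = 0.0027) and by 0.79 ± 0.23 at 48 h (0.012), while the difference of -0.66 ± 0.23 at 12 h (0.023) lost its call without 0 h replicate a (-0.64), 12 h replicate a (-0.65) or 12 h replicate c (-0.65), and that of -0.58 ± 0.23 at 24 h did not pass (0.057).

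The large-subunit protein L17 has 2 genes, and NO15G03280 was the second most abundant member at 318 FPKM. It went from 253.5, 249.1 and 235.5 CPM at 0 h to 133.8, 144.0 and 129.4 after 6 h, 145.4, 193.4 and 181.2 after 12 h, 241.4, 249.0 and 252.7 after 24 h, and 218.1, 194.3 and 212.9 after 48 h. It fell at 6 h (-0.86 ± 0.09; edgeR adjusted p = 8.8e-06) and 12 h (-0.51 ± 0.09; 0.00036), and rose from 12 to 24 h (0.52 ± 0.09; 0.00047) to overlap with 0 h. The other gene, NO07G01030, fell by 0.67 ± 0.15 in that step (edgeR adjusted p = 0.0029), so the pair moved in opposite directions from 12 to 24 h.

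The protein L10 (NO18G02380), part of the stalk to which translation factors bind, swung most over the time course. Its libraries stood at 155.6, 150.1 and 173.4 CPM at 0 h, 105.4, 101.2 and 126.5 after 6 h, 160.6, 209.9 and 185.4 after 12 h, 236.7, 251.8 and 264.4 after 24 h, and 160.9, 159.0 and 154.2 after 48 h. It fell by 0.53 ± 0.11 at 6 h, rose by 0.74 ± 0.11 from 6 to 12 h and by 0.44 ± 0.10 from 12 to 24 h, and fell by 0.67 ± 0.11 from 24 to 48 h (edgeR adjusted p = 0.0012, 0.00012, 0.0038 and 0.001). At 24 h it was above 0 h by 0.65 ± 0.11 (0.00032), and at 48 h the libraries of both times overlapped.

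The small-subunit protein S15 (NO13G02650), named here because of its high level after its values had been seen, followed a like course with a smaller swing. It stood at 495.8, 487.6 and 473.9 CPM at 0 h, 363.7, 362.2 and 373.1 after 6 h, 455.3, 488.4 and 446.3 after 12 h, 576.4, 548.7 and 581.4 after 24 h, and 394.2, 366.7 and 377.4 after 48 h. It fell by 0.41 ± 0.05 at 6 h, and was 0.23 ± 0.05 above 0 h at 24 h and 0.36 ± 0.05 below it at 48 h (edgeR adjusted p = 2e-05, 0.0021 and 7e-05).

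The large-subunit protein L28 (NO02G05490) stood at 447.6, 451.5 and 455.4 CPM at 0 h, 367.7, 354.7 and 397.1 after 6 h, 418.4, 411.0 and 382.5 after 12 h, 529.5, 552.0 and 544.5 after 24 h, and 336.1, 306.2 and 312.2 after 48 h. Its 24 h libraries were the highest and its 48 h libraries the lowest, with no overlap with any other time. The fall from 24 to 48 h, -0.77 ± 0.06 (edgeR adjusted p = 3.1e-06), was the largest of any organelle ribosomal protein in that step. L9 (NO07G02020) was also above 0 h at 24 h, by 0.47 ± 0.12 (edgeR adjusted p = 0.0066).

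**Figure D4:**
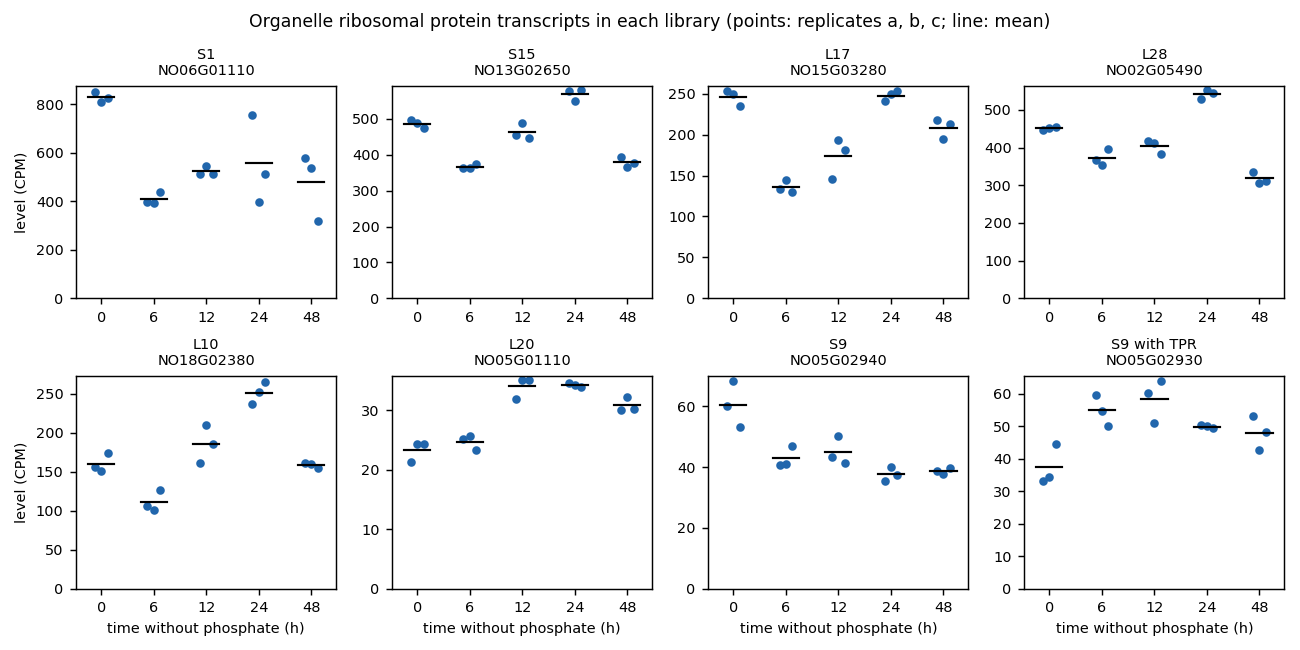
Level in CPM of 8 organelle ribosomal protein transcripts in each of the 15 libraries, by time without phosphate; points are replicates, lines their mean, and each axis starts at 0. S15, L28 and L10 have their highest libraries at 24 h, L20 stays above 0 h from 12 h on, and the neighbouring S9 genes go opposite ways.

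Several other members were at their lowest at 48 h. L3 (NO05G04640), a core protein of the large subunit, went from 300.1, 308.9 and 309.8 CPM at 0 h to 217.8, 224.3 and 197.2 after 12 h, 246.6, 223.5 and 228.6 after 24 h, and 202.5, 199.1 and 185.6 after 48 h, a fall of 0.52 ± 0.06 at 12 h and 0.65 ± 0.06 at 48 h (edgeR adjusted p = 5.8e-06 and 3.5e-06). Its model also holds a dehydrogenase domain, and its neighbour NO05G04650, described as L3 too, had 0 to 0.159 CPM and was not tested. L15 (NO09G03610), also of the large subunit, stood at 44.4 to 50.5 CPM at 0 h and 33.0 to 35.1 CPM at 48 h, and had fallen by 0.42 ± 0.06 at 24 h (edgeR adjusted p = 0.00016) and 0.48 ± 0.06 at 48 h (4.6e-05). L24 (NO26G00320) had fallen at 48 h by 0.57 ± 0.14 (edgeR adjusted p = 0.005). S16 (NO27G00620) was called as fallen at 48 h only (-0.59 ± 0.15; edgeR adjusted p = 0.0051), from 58.7, 39.1 and 38.1 CPM at 0 h to 29.7, 29.8 and 30.4 CPM, and without 0 h replicate a the value was -0.36. L13 (NO01G00870), lowest at 6 h, was below 0 h at all 4 later times (-0.49 to -0.23).

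Lasting rises were rare. L20 (NO05G01110), needed for assembly of the large subunit in bacteria, stood at 21.3, 24.4 and 24.4 CPM at 0 h, 31.9, 35.1 and 35.1 after 12 h, 34.6, 34.2 and 33.9 after 24 h, and 30.8 ± 1.27 (SD, n = 3) after 48 h. It rose by 0.54 ± 0.07 at 12 h, 0.55 ± 0.07 at 24 h and 0.40 ± 0.07 at 48 h (edgeR adjusted p = 3.3e-05, 7.3e-05 and 0.00068), with no overlap between 0 h and those times. Others did not last. L11 (NO29G01470), which lies at the factor-binding site, rose at 12 h by 0.58 ± 0.17 (edgeR adjusted p = 0.0091), from 9.49 to 9.92 CPM at 0 h to 11.7 to 16.1 CPM. Its 24 h libraries (8.76, 10.1 and 11.9 CPM) overlapped with those of 0 h. L4 (NO22G02080) rose from 6 to 12 h by 1.06 ± 0.25 (edgeR adjusted p = 0.0045), the largest called step of the class, from 49.5 to 57.1 CPM to 104.1 to 123.8 CPM. Its 0 h libraries were spread widely (67.5, 112.9 and 70.3 CPM) and overlapped with those of 12 h. At 24 h it stood at 54.0, 86.1 and 89.3 CPM.

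The 2 genes with mitochondrial homologs are both described as S9 and lie next to each other by their numbers. NO05G02940 fell from 60.2, 68.4 and 53.2 CPM at 0 h to 43.3, 50.2 and 41.3 after 12 h and 35.5, 39.9 and 37.5 after 24 h (-0.69 ± 0.10; edgeR adjusted p = 0.00018). NO05G02930 went from 33.1, 34.5 and 44.7 CPM at 0 h to 60.4, 51.0 and 64.0 after 12 h, a rise of 0.64 ± 0.13 (edgeR adjusted p = 0.00075). It was also called as risen at 6 h (0.55), 24 h (0.41) and 48 h (0.36), but its 48 h libraries overlapped with those of 0 h. The latter model also holds tetratricopeptide repeats and a methyltransferase domain, so its reads may not be those of a ribosomal protein alone, and no source used here says how reads were divided between the neighbours.

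The 9 proteins without a plastid-genome namesake (S1, S15, L9, L10, L15, both L17 genes, L24 and L28) were the more abundant, with a median of 62.2 FPKM and a range of 11.8 to 335 FPKM. The 14 tested genes with a namesake had a median of 32.0 FPKM, from 8.33 to 59.8 FPKM. Falls made up 25.7%, 32.7%, 20.8% and 23.0% of all tested genes at the 4 later times in order, and rises 24.7%, 32.1%, 25.2% and 26.3%. In the first group 6 fell and 0 rose at 6 h, 4 fell and 0 rose at 12 h, 3 fell and 4 rose at 24 h, and 7 fell and 0 rose at 48 h, where the counts of 0 rises were also 0 by DESeq2. In the second 4 fell and 1 rose at 6 h, 3 fell and 5 rose at 12 h, 5 fell and 2 rose at 24 h, and 7 fell and 2 rose at 48 h, of which the falls at 6 h and the rises at 12 h were near the shares of all genes. In the fits that left out 1 library, the first group's 12 h falls numbered 2 to 5 and its rises 0 to 1, its 24 h falls 1 to 4 and its 24 h rises 4 in each, and the second group's 24 h and 48 h rises 1 to 2. The difference between these groups was not tested.

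The summed level of a class is weighted by its abundant members. The 45 synthetases together took 5122 ± 196.0 CPM (SD) at 0 h, 4302 ± 123.1 at 6 h, 4274 ± 245.8 at 12 h, 5514 ± 194.1 at 24 h and 4678 ± 52.5 at 48 h. The 24 ribosomal proteins took 3259 ± 7.23 CPM at 0 h, 2351 ± 56.4 at 6 h, 2782 ± 101.8 at 12 h, 3098 ± 169.6 at 24 h and 2397 ± 183.3 at 48 h. Both sums were lower at 6 h than at 0 h by more than the spread between libraries and were higher again at 24 h.

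Other genes of protein synthesis were followed from lists matched to the same descriptions. Falls made up 25.7%, 32.7%, 20.8% and 23.0% of all tested genes at the 4 later times in order, and rises 24.7%, 32.1%, 25.2% and 26.3%. Among 19 tested translation factors of bacterial type, 11 fell and 0 rose at 6 h, 9 fell and 2 rose at 12 h, 5 fell and 6 rose at 24 h, and 9 fell and 1 rose at 48 h, with 13 rises and 1 fall from 12 to 24 h (all genes 27.2% and 26.6%). The plastid elongation factor Tu homolog NO02G01060, which brings charged tRNA to the ribosome, had fallen by 2.76 on the log2 scale at 12 h by the edgeR test, and the mitochondrial elongation factor Ts homolog NO04G03630 had risen by 0.58. A list of 9 genes held 7 genes for subunits of the glutamyl-tRNA amidotransferase, a D-aminoacyl-tRNA deacylase and a peptide deformylase, which removes the formyl group from new proteins and takes no part in charging. Of the 9, 6 fell and 1 rose at 12 h, and 8 rose and 0 fell from 12 to 24 h. The rise at 12 h was that of the deformylase NO04G02170 (0.25). Among the amidotransferase genes the amidotransferase subunit A homolog NO30G01250, which converts glutamyl-tRNA to glutaminyl-tRNA in organelles and bacteria, had fallen by 2.18 at 12 h.

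Of 18 tRNA-modifying enzymes, 9 fell and 3 rose at 12 h (all genes 32.7% and 32.1%). At 48 h 5 fell and 2 rose (all genes 23.0% and 26.3%). The summed level of this list was nonetheless higher at 48 h, at 4785 ± 348.7 CPM (SD) against 2677 ± 12.1 at 0 h. The 5 tested genes matched by description to assembly factors of bacterial-type ribosomes had 1 rise (the GTPase ERA1 homolog NO02G03910, 0.45) and 1 fall (NO04G04180, -0.59) at 12 h. NO04G04180 is described as a ribosomal RNA small subunit methyltransferase with no compartment word. Whether it acts on an organelle ribosome is thus not known. Of 33 eukaryotic translation factors, 16 rose and 6 fell at 12 h (all genes 32.1% and 32.7%).

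Most cytosolic ribosomal proteins had risen at 6, 12 and 24 h. Of 72 tested, 65 rose and 1 fell at 6 h, and 66 rose and 2 fell at 12 h. At 24 h 67 rose and 0 fell, and at 48 h 3 rose and 17 fell. Of all tested genes 24.7%, 32.1%, 25.2% and 26.3% rose and 25.7%, 32.7%, 20.8% and 23.0% fell at these times in order. The 17 falls at 48 h were thus near the share of all genes, while the 3 rises were below it. Medians of the list were 1.11, 1.25, 1.01 and -0.10. At the same times the organelle ribosomal proteins had medians of -0.31, -0.07, -0.13 and -0.36 and the synthetases of -0.14, -0.26, 0.09 and -0.10. The comparisons share the 0 h libraries, and the differences between the lists were not tested. Per length, the median cytosolic ribosomal protein stood at 223.0 FPKM and the median organelle one at 35.7 FPKM.

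**Figure D5:**
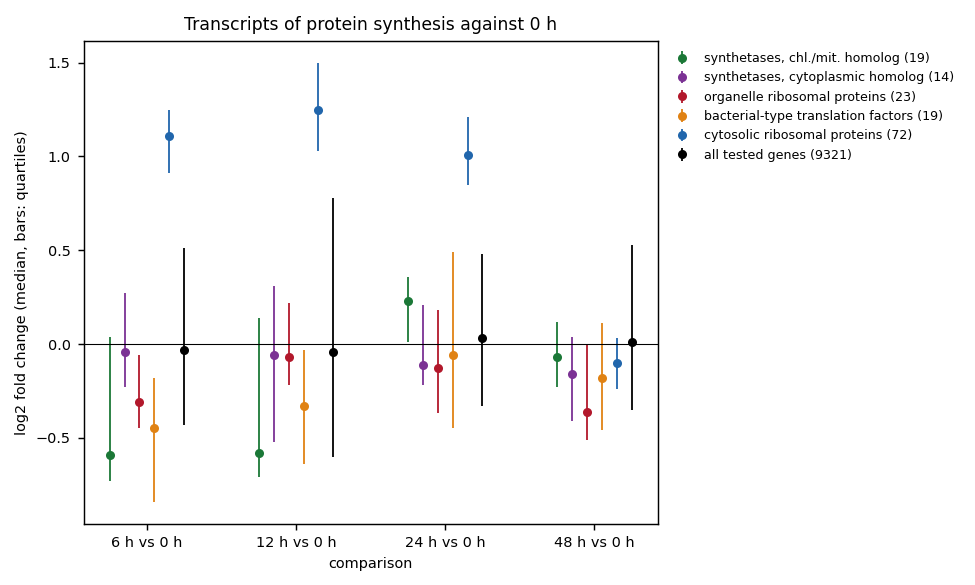
Median log2 fold change against 0 h at 6, 12, 24 and 48 h for 5 groups of protein synthesis genes and for all 9321 tested genes, with bars for the quartiles over genes and the number tested in brackets. Cytosolic ribosomal proteins lie near 1 until 24 h, chloroplastic/mitochondrial synthetase homologs at -0.59 and -0.58 at 6 and 12 h and 0.23 at 24 h, and organelle ribosomal proteins at or below -0.07 throughout.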

How the data were processed

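RNA was sequenced from 15 libraries, 3 at each of 5 times. The submitters' processing notes name the aligner HISAT2. What counter, genome build and annotation the authors used is not given in the sources used here. Values deposited are, per the file headers, expected counts (estimated counts, whole in the table) and FPKM per gene and library, as the authors calculated them. Both members and lists were chosen with earlier results of these data known. Software was R 4.3.3, edgeR 4.0.16, limma 3.58.1 and, as an alternative, DESeq2 1.42.0. All 15 libraries entered a quasi-likelihood fit (10 residual degrees of freedom) after filterByExpr and TMM scaling, with two-sided p-values adjusted by Benjamini-Hochberg over 9321 genes. Library totals were 16649421 to 26349336 counts, CPM was scaled by TMM, and 0 columns of unmapped samples were present. FPKM was used for levels between genes only. The steps were tested on simulated data.

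Named members were, per class, the 4 largest called rises and falls against 0 h (2 for successive times) whose mean log2 CPM reached 3. Their libraries also did not overlap with those of the earlier time of the comparison. The extremes of FPKM, the untested members and each amino acid's synthetases were named too. Other ribosomal proteins named in the text (S15, L13) were chosen after their values were seen. Of the reference table's 160 organelle genes, 0 matched an ID of the deposited table. Alternatives were DESeq2 or upper-quartile factors, other filters, the replicate block, only 6 libraries, a 2-fold minimum and each library left out. Python 3.11.15, pandas 2.3.3 and matplotlib 3.10.9 drew the figures.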

Additional observations from a re-analysis of the deposited data

How the results depend on the processing

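The 22 counts of called members kept within 1.5 times of their value in 499 alternatives and moved further in 51. A 2-fold minimum removed most calls. Of the synthetases it left 1 rise and 1 fall at 6 h, 2 rises with 3 falls at 12 h, and 0 of either for 24 h or 48 h, with 0, 4 and 0 calls for 12 against 6 h, 24 against 12 h and 48 against 24 h. Of the ribosomal proteins it left 0 rises and 1 fall at 6 h and 0 of either at the later times, with 1, 0 and 0 calls in the successive steps (edgeR; counts at the adjusted p alone stand in the report). With only the 6 libraries compared, 4 synthetases were called from 6 to 12 h, 7 ribosomal proteins from 12 to 24 h, and 1 ribosomal protein had risen at 48 h. DESeq2 size factors and DESeq2 each gave 2 risen ribosomal proteins at 6 h, and upper-quartile factors gave 3 risen at 12 h and 7 called from 12 to 24 h. Without the neighbouring genes of the same description, an alternative chosen after seeing the data, 0 ribosomal proteins had risen at 6 h and 1 at 48 h. Leaving out the synthetase genes NO03G03570 and NO05G00870, also chosen then, moved no count beyond 1.5 times. Leaving out each library in turn gave 5 to 9 risen synthetases at 6 h, 3 to 8 fallen at 24 h and 1 to 3 risen at 48 h, and 1 to 2 risen ribosomal proteins at 6 h, 5 to 9 fallen at 24 h and 1 to 2 risen at 48 h. For the 214 called log2 fold changes of members, 4407 of 4708 alternatives kept the call and the sign, 301 lost the call, 0 changed sign, and 56 results lost their call somewhere. The cause was not tested. The letters did not pair the libraries (30 same-letter pairs, correlations -0.088 to 0.0768, 0 above 0.1, and 5 of 15 libraries closest to their own letter); the fit with the replicate block gave 19 fallen and 9 risen synthetases and 7 fallen and 5 risen ribosomal proteins at 12 h, and 6 risen synthetases at 6 h. The planned run without modifying enzymes and kinases gave no value because the rule matched none. Of the 3 members that were not tested, NO01G01770 and NO05G04650 reached at most 17 and 3 counts in a library. NO04G02920 reached 299 counts in 6 h replicate c and had 0 in most other libraries.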
